A study of Mus musculus with 18 samples.

Results

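The genes described here are Fezf2, Slc6a4, B4galnt2, Hpgds, Cldn4, Krt19, Coch and 1700042G15Rik. They are 8 of the 17198 genes in the deposited expression table of a study of cultured mouse dorsal root ganglion (DRG) neurons. They were selected on their normalized counts over time, among the genes with the largest increases from 12 h to 24 or 48 h of culture, leaving out classical regeneration genes. Their differences over time are therefore given below as a description, without a test. Wild-type (WT) cultures were compared with Dynlrb1 tm1a/+ heterozygous (HET) cultures, which keep 1 wild-type copy of Dynlrb1. Its product belongs to the light chains of dynein, which moves cargo along microtubules toward the cell body. Total RNA was sequenced after 12, 24 and 48 h in culture, with 3 biological replicates for each genotype and time and 18 cultures in all. Strain, age, sex and culture conditions are not given in the sources used here, and the labels do not say whether each replicate came from a separate animal, so p-values measure the spread between these cultures.

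Dissociation cuts the axons of sensory neurons, and the neurons then regrow them in the dish. Injured neurons switch on a known set of genes, such as Atf3, Sprr1a and Gap43, under transcription factors that include the AP-1 family. The 8 genes are better known from other tissues: Fezf2 from cortical projection neurons, Slc6a4 from serotonin neurons and platelets, B4galnt2 from gut epithelium, Hpgds from mast cells and other immune cells, Cldn4 and Krt19 from simple epithelia, and Coch from the inner ear. 1700042G15Rik is a long intergenic noncoding RNA with no role named here.

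The 8 genes were chosen for their increases from 12 h, and their time courses differ otherwise, as described below. The DNA just before their start sites is shown for the 4 genes where these 250 bases overlapped no annotated exon. The RefSeq table of start regions (GRCm38.p6, which is the mm10 build) held 7 of the 8 genes, and Krt19 was not matched. Each sequence reads 5′ to 3′ on the gene's own strand and ends at the base before the start site. Capitals mark matches to TGANTCA, a loose form of the AP-1 site in which N is any base, searched on both strands. A match with A or T at N lies outside the usual AP-1 site. Cldn4 is at chr5:134946935-134947184 on the minus strand, Slc6a4 at chr11:76998347-76998596 on the plus strand, Coch at chr12:51593091-51593340 on the plus strand and 1700042G15Rik at chr4:57364293-57364542 on the minus strand.
Cldn4: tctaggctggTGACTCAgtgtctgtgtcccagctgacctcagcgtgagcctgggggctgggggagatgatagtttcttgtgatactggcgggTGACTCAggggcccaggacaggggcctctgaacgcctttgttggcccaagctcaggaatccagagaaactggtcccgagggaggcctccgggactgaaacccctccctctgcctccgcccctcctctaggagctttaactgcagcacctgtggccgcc
Slc6a4: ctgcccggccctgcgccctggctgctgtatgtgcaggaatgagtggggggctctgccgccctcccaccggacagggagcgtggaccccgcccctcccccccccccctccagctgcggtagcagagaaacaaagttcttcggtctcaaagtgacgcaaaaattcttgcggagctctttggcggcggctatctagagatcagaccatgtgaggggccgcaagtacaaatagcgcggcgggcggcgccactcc
Coch: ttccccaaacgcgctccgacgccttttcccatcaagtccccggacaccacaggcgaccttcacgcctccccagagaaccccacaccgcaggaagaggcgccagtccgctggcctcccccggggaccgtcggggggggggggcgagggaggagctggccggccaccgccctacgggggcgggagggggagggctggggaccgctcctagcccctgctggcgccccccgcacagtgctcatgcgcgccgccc
1700042G15Rik: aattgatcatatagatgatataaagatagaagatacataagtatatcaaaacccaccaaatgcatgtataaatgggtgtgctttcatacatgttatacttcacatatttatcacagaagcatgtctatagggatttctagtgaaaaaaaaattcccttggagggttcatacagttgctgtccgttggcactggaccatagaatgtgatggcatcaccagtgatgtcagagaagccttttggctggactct

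The Cldn4 window held 2 such matches, both TGACTCA, beginning 240 and 158 bases before the start site. The Fezf2 window, which overlaps an exon of Fezf2 and is not printed, held 1 match 121 bases before the start site. This was TGAATCA, with A at N. None of the other 5 windows held a match to the loose form. For comparison, 6.75% of all 32851 windows held a match to it. GC boxes (GGGCGG) occurred 3 times each in the Slc6a4 and Coch windows, 1 time each in those of Cldn4, B4galnt2 and Fezf2, and in 32.7% of all windows. The letters TATAAA occurred 2 times in the 1700042G15Rik window, at 232 and 184 bases before the start site, and in 12.4% of all windows. The 4 printed windows also differed in base composition: G and C made up 74.8% of the Coch window, 64.8% of the Slc6a4 window, 62.0% of the Cldn4 window and 37.2% of the 1700042G15Rik window, against a median of 52.4% over all windows. CCAAT, found in 33.8% of all windows, and the E box CACGTG, found in 6.02%, were searched as well and matched in none of the 7. These matches describe letters and not binding sites.

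Levels are given as the authors' normalized counts, in replicates 1, 2 and 5 at 12 and 24 h and in replicates 1, 2 and 3 at 48 h, in that order. Dynlrb1 served as the check of the genotype labels: its normalized counts lay between 5229 and 6674 in the WT cultures and between 2716 and 4087 in the HET cultures. Differences are log2 differences of group means of log2(normalized count + 1) with standard errors (SE) from limma, a scale that understates the change of genes with low values. Sequencing depth is unknown. In these bulk cultures, a lower level from fewer cells that express a gene and from less RNA per cell cannot be told apart.

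All 8 genes had low levels at 12 h and higher mean levels at 24 and 48 h in both genotypes. The WT means at 48 h were 11.6 to 50.7 times those at 12 h, and the HET means 3.00 to 10.2 times. In WT every gene had a higher mean at 48 h than at 24 h, and for 7 of 8 every 48 h culture was above every 24 h culture, beside 27.7% of all genes. The choice of the genes used their WT levels at 48 h, so this count is not independent of it. In HET the mean at 48 h was below that at 24 h for Fezf2, Slc6a4, B4galnt2, Hpgds and 1700042G15Rik, and above it for Cldn4, Krt19 and Coch. The contrasts with 12 h chose the genes, so the next counts describe the choice. In every 48 h culture, 8 of 8 genes were higher than in every 12 h culture in WT, and 8 of 8 in HET. This held for 34.6% and 21.6% of all genes. At 24 h against 12 h the count was 7 of 8 in WT and 8 of 8 in HET, beside 18% and 25.4% of all genes.

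**Figure D1:**
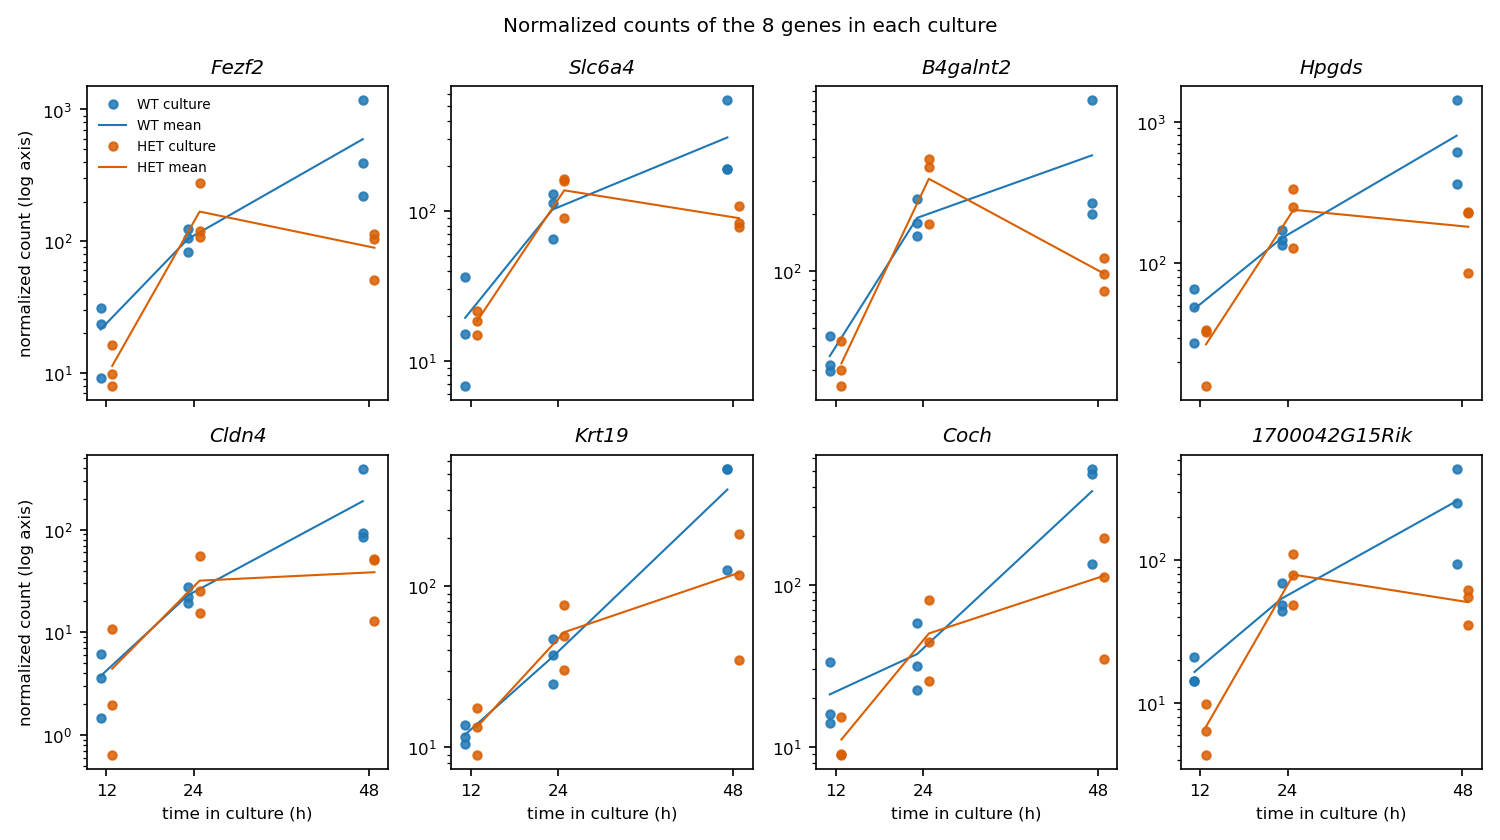
Normalized counts (log axis) of the 8 genes against time in culture (h). Each point is 1 culture and lines join the means of 3 cultures, with WT in blue and HET in orange. In WT the lines climb at both steps, while in HET those of 5 genes turn down between 24 and 48 h.

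Fezf2 encodes a zinc finger transcription factor that specifies subcerebral projection neurons of the cortex, and it lies on chromosome 14 (12342094 to 12348189, minus strand, GRCm38). In WT its normalized counts were 23.6, 9.20 and 31.3 at 12 h, 124, 106 and 82.1 at 24 h, and 391, 1174 and 219 at 48 h. In HET they were 16.2, 7.94 and 9.80 at 12 h, 276, 107 and 120.4 at 24 h, and 104, 113 and 50.5 at 48 h. All 3 WT cultures at 48 h stood above all other cultures except for HET replicate 1 at 24 h, which lay between them, and the 3 HET cultures at 48 h overlapped the 24 h cultures of both genotypes. The differences from 12 h were 2.37 at 24 h and 4.54 at 48 h in WT, and 3.70 and 2.85 in HET (log2, each SE 0.55).

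The noncoding RNA 1700042G15Rik lies on chromosome 4 (57360868 to 57364292, minus strand). The WT cultures had normalized counts of 14.3, 14.2 and 20.9 at 12 h, 69.8, 48.3 and 43.7 at 24 h, and 249.7, 436 and 94.0 at 48 h. The HET cultures had 9.76, 6.39 and 4.33, then 110.5, 48.4 and 78.8, and then 61.9, 55.2 and 35.4. All HET cultures were below all WT cultures at both 12 and 48 h, and the genotypes overlapped at 24 h. Over the 18 cultures its profile was the one nearest to that of Fezf2, as described further down. Its differences from 12 h were 1.65 and 3.66 in WT and 3.34 and 2.75 in HET (log2, each SE 0.45).

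Slc6a4 encodes the serotonin transporter, which takes serotonin back up into cells. It lies on chromosome 11 (76998603 to 77032340, plus strand) and overlaps an annotated antisense gene. Its normalized counts in WT were 36.2, 6.78 and 15.1 at 12 h, 65.1, 112 and 129 at 24 h, and 191, 548 and 190.0 at 48 h. Those in HET were 18.4, 14.9 and 21.6, then 158, 90.2 and 164, and then 83.6, 107 and 77.6. The WT cultures at 48 h were the 3 highest of the 18, and the HET cultures were lower and close to one another at 48 h. Relative to 12 h, the log2 differences were 2.57 and 4.02 in WT and 2.81 and 2.23 in HET (each SE 0.48).

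B4galnt2 encodes a glycosyltransferase that adds N-acetylgalactosamine to make the Sda (Cad) carbohydrate antigen. It lies on chromosome 11 (95865943 to 95914891, minus strand), where an antisense gene overlaps it. In WT its normalized counts were 45.1, 31.7 and 29.5 at 12 h, 154, 179 and 241 at 24 h, and 199.5, 802 and 228 at 48 h. In HET they were 42.6, 24.6 and 30.1, then 354, 178 and 393, and then 78.1, 117 and 96.6. It is the gene of the 8 whose 24 and 48 h cultures overlapped in WT. In HET every 48 h culture was below every 24 h culture, which held for B4galnt2 only among the 8 genes and for 8.08% of all genes. The differences from 12 h were 2.40 and 3.22 in WT and 3.16 and 1.57 in HET (log2, each SE 0.42).

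Hpgds encodes hematopoietic prostaglandin D synthase, which turns prostaglandin H2 into prostaglandin D2. It lies on chromosome 6 (65117293 to 65144908, minus strand), and a processed pseudogene lies within the same stretch on the other strand. The WT cultures had normalized counts of 66.4, 49.6 and 27.3 at 12 h, 172, 146 and 135 at 24 h, and 609, 1416 and 364 at 48 h. The HET cultures had 34.0, 13.6 and 33.0, then 337, 129 and 250.0, and then 228, 230.3 and 85.9. The WT cultures at 48 h exceeded all others, and the HET cultures at 24 and 48 h covered much the same range. Relative to 12 h, the log2 differences were 1.72 and 3.89 in WT and 3.10 and 2.68 in HET (each SE 0.51). The genes that overlap Slc6a4, B4galnt2 and Hpgds were not analysed here, and whether strand was used in counting is not stated, so reads from them could not be separated.

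Cldn4 encodes claudin 4, a membrane protein of epithelial tight junctions, and lies on chromosome 5 (134945119 to 134946934, minus strand). Its normalized counts in WT were 6.20, 3.57 and 1.46 at 12 h, 27.7, 19.2 and 22.1 at 24 h, and 93.9, 391 and 84.2 at 48 h. Those in HET were 1.94, 0.640 and 10.7, then 55.1, 15.5 and 25.1, and then 51.1, 51.5 and 12.9. The 3 times did not overlap in WT, the 24 and 48 h cultures overlapped in HET, and every HET culture was below every WT culture at 48 h. Cldn4 had the largest difference between 12 and 48 h in WT of the 8 genes. The differences from 12 h were 2.46 and 5.09 in WT and 2.91 and 3.13 in HET (log2, each SE 0.74), and this SE was the widest of the 8.

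Krt19 encodes keratin 19, an intermediate filament protein of simple epithelia, and lies on chromosome 11 (100140810 to 100148665, minus strand). In WT its normalized counts were 13.8, 11.7 and 10.5 at 12 h, 47.0, 37.6 and 24.8 at 24 h, and 537, 536 and 127 at 48 h. In HET they were 13.4, 8.99 and 17.6, then 76.5, 30.0 and 49.2, and then 211, 118 and 35.1. HET replicate 1 at 48 h stood above WT replicate 3, so the genotypes overlapped there. Between 24 and 48 h, the WT means differed by 3.20 and the HET means by 0.97 (log2), so that most of the WT difference lay there and most of the HET difference before 24 h. Relative to 12 h, the log2 differences were 1.49 and 4.69 in WT and 1.83 and 2.81 in HET (each SE 0.59).

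Coch encodes cochlin, a secreted matrix protein of the inner ear with an LCCL domain and von Willebrand factor A domains, and lies on chromosome 12 (51593341 to 51605771, plus strand). The WT cultures had normalized counts of 33.2, 16.0 and 13.9 at 12 h, 58.0, 22.3 and 31.6 at 24 h, and 481, 516 and 133 at 48 h. The HET cultures had 15.3, 9.06 and 8.93, then 80.2, 44.2 and 25.4, and then 194, 111 and 34.6. Coch was the 1 gene of the 8 whose 12 and 24 h cultures still overlapped in WT, and at 48 h HET replicate 1 stood above WT replicate 3. The differences from 12 h were 0.79 and 3.97 in WT and 1.97 and 2.97 in HET (log2, each SE 0.62).

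Among all 17198 genes ranked by log2 difference, the members did not stand at the top alone. In WT at 48 h against 12 h, Npy, a neuropeptide induced by nerve injury, was first at 5.31, and Cldn4 (rank 2) and Krt19 (rank 4) had 2810417H13Rik between them at 5.04. Fezf2 had rank 6 there, next to the interleukin gene Il24 (4.66) and Sprr1a, a cornified envelope protein known from regenerating axons (4.52). The dividing cell markers Top2a (rank 9, 4.48), Aurkb (rank 12, 4.23) and Uhrf1 (rank 13, 4.10) stood among the top ranks as well. In HET at 24 h against 12 h, Fezf2 ranked first, and 1700042G15Rik, B4galnt2 and Hpgds had ranks 4 to 6, after the transcription factor Sall1 (3.52) and Sprr1a (3.44). In WT at 24 h the first ranks went to the secreted ligand Wnt9b (2.87) and Sprr1a (2.75), with Slc6a4 next. Coch had rank 648 in that comparison, the lowest rank of any member in a comparison of times.

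Levels of different genes can be set side by side only per length, for which the deposited FPKM, which scales fragments by gene length and library size, was used. At 12 h all 8 genes were below 0.35 FPKM on average in both genotypes, with Hpgds highest in WT at 0.349 ± 0.143 FPKM (SD, n = 3) and Cldn4 lowest at 0.0499 ± 0.0315 FPKM (SD, n = 3). Only 1.48% of all genes had a lower WT mean at 12 h than Cldn4. At 48 h in WT the order was Krt19 at 7.01, Fezf2 at 6.22, Hpgds at 5.82, Coch at 3.65, 1700042G15Rik at 3.16, Slc6a4 at 2.71, Cldn4 at 2.52 and B4galnt2 at 2.42 FPKM. The cultures of any neighbours in this order overlapped: Krt19 covered 2.22 to 9.41 FPKM and Fezf2 2.29 to 12.3 FPKM. Krt19, the highest, stood above 53.0% of all genes. At 48 h in HET the order was led by Krt19 at 2.13, Hpgds at 1.32 and Coch at 1.10 FPKM and ended with B4galnt2 at 0.573 and Cldn4 at 0.513 FPKM.

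**Figure D2:**
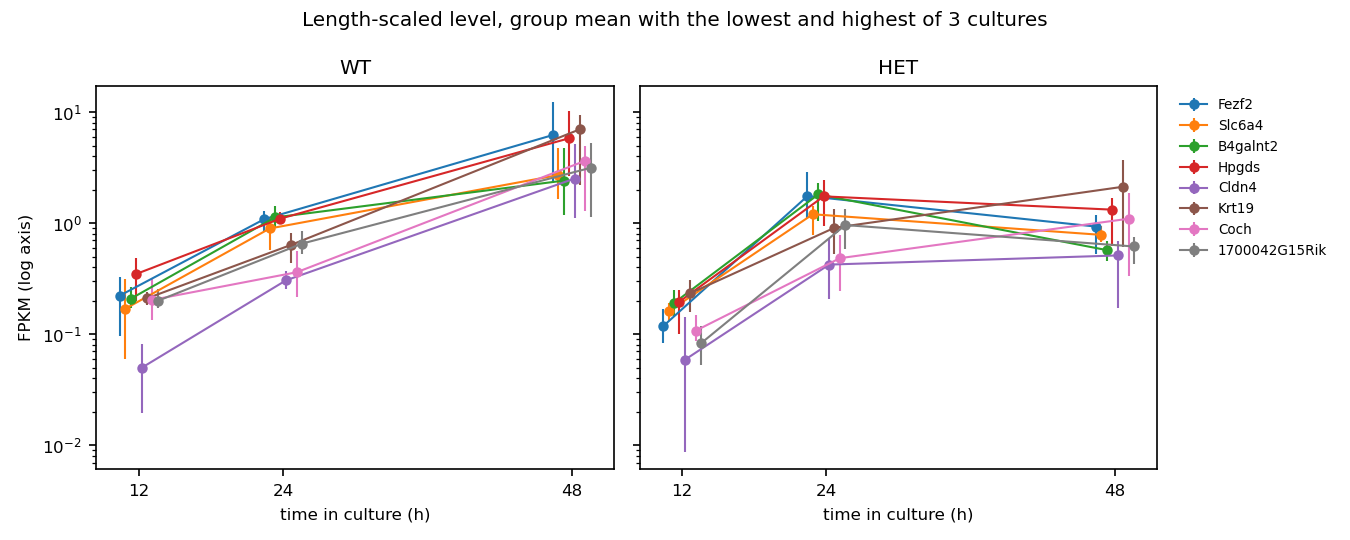
FPKM (log axis) of the 8 genes against time in culture (h), WT left and HET right. Points are means of 3 cultures and bars reach the lowest and highest culture. All 8 genes start below 0.35 FPKM, and their bars overlap at 48 h in WT, where means run from 2.42 to 7.01 FPKM.

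Between genotypes, all 8 genes had lower means in HET than in WT at 48 h. The difference was -2.45 for Fezf2, -2.13 for Cldn4, -2.11 for 1700042G15Rik, -2.03 for Hpgds, -1.81 for Coch, -1.78 for B4galnt2, -1.78 for Krt19 and -1.60 for Slc6a4 (log2, SE 0.42 to 0.74). As normalized counts, Fezf2 was 595 ± 509 in WT and 89.2 ± 33.8 in HET (SD, n = 3 each). Hpgds was 796 ± 550.2 in WT and 181 ± 82.6 in HET (SD, n = 3 each). 1700042G15Rik was 259.8 ± 171 in WT and 50.8 ± 13.8 in HET (SD, n = 3 each). The WT cultures of Fezf2, Hpgds and 1700042G15Rik were thus widely spread, and the HET cultures lay closer together. Krt19 was 399.9 ± 236.5 in WT and 121.5 ± 88.1 in HET (SD, n = 3 each). Coch was 376.5 ± 211.6 in WT and 113.2 ± 79.8 in HET (SD, n = 3 each). For Krt19 and Coch the HET cultures were also widely spread for their means.

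The genotype comparisons use the same cultures whose time differences chose the genes, WT at 48 h among them, so they are not independent of the choice. In limma with Benjamini-Hochberg adjustment over all genes, 0 of 8 members and 0% of all genes passed the threshold of 0.05 at 48 h. Dynlrb1, of which HET keeps 1 wild-type copy, did not pass either. Its 48 h means were 6015 in WT and 3346 in HET, and the cultures did not overlap. The count of 0 of 8 therefore does not show that the members were alike in both genotypes. The adjusted p was 0.0502 for Fezf2 and 1700042G15Rik, 0.0526 for B4galnt2, 0.0558 for Hpgds, 0.0795 for Slc6a4, 0.0986 for Krt19, 0.107 for Coch and 0.111 for Cldn4. At an unadjusted p under 0.05, all 8 members were lower in HET, beside 13.3% of all genes. In 6 of the 8 genes every HET culture was below every WT culture, beside 14.4% of all genes, and for Krt19 and Coch this held in 8 of the 9 pairs of a HET and a WT culture. With only the groups compared, 0 of 8 members and 0 of all genes passed at 48 h (members' limma adjusted p 0.258 to 0.297). With the 2 directions between cultures removed before deposit as covariates, 0 of 8 members and 1 of all genes passed. The members' limma adjusted p was then 0.0779 to 0.160. The call at 48 h did change with a replicate block, in which WT and HET cultures of the same number are compared with each other. The labels name no shared source for a number, but same-numbered cultures at 48 h deviated together from their group means, with correlations over all genes of 0.32, 0.21 and 0.46. With the number as a block over all times, 7 of 8 members passed, beside 10.4% of all genes, and Cldn4 did not (limma adjusted p 0.0612). With the block within each time, chosen after seeing the data, it was 8 of 8, beside 12.3% of all genes. All 8 ranked between 17138 and 17191 of 17198 by log2 difference, near the lowest end. In the authors' deposited table, made with another test, 8 of 8 members had an adjusted p under 0.05 at 48 h, with adjusted p from 0.000104 to 0.0320, as did 1028 genes (5.98%).

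The 48 h difference depended on single cultures. Without WT replicate 2, the culture with the highest value of 7 of the 8 genes at 48 h, the 8 differences ran from -1.79 to -1.09 and the limma adjusted p from 0.394 to 0.518. Without HET replicate 3, which was the lowest HET culture in 7 of the 8 genes, they ran from -2.09 to -1.07, with adjusted p from 0.251 to 0.490. Without WT replicate 3, the lowest WT culture in 7 of the 8, 6 members passed the threshold, beside 5.41% of all genes, and the differences ran from -3.00 to -1.85. Without HET replicate 1 it was 5 members and 4.28% of all genes, and without HET replicate 2 it was 4 members and 2.98%. Without WT replicate 1 it was 0 members and 0 of all genes. The differences then ran from -2.58 to -1.43, with limma adjusted p from 0.0890 to 0.256. All 8 stayed below 0 in each of these fits.

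**Figure D3:**
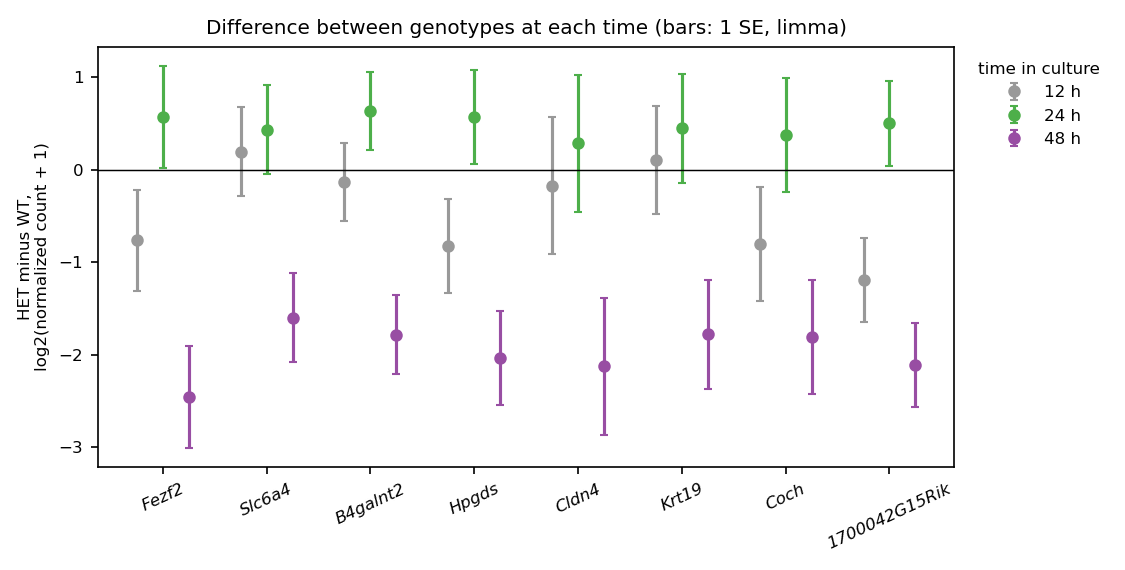
HET minus WT in log2(normalized count + 1) for the 8 genes at 12 h (grey), 24 h (green) and 48 h (purple), with bars of 1 SE from limma. The 48 h points lie between -2.45 and -1.60, and the 24 h points between 0.28 and 0.63.

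At 24 h the point estimates lay on the other side: all 8 were above 0, from 0.28 for Cldn4 to 0.63 for B4galnt2, with SE from 0.42 to 0.74. The cultures of the genotypes overlapped for all 8 genes, while 2.81% of all genes were higher in every HET culture and 2.79% lower. In limma 0 of 8 members passed the threshold (0.00581% of all genes did), 0 had an unadjusted p under 0.05 (1.15% of all genes did), and 0 had an adjusted p under 0.05 in the authors' deposited table (0.0116% of all genes did). At 12 h, 6 of the 8 estimates were below 0, and 0 of 8 members passed in limma (0.00581% of all genes) or in the authors' deposited table (0.0233% of all genes). The only gene that passed in limma at 12 h was higher in HET, so Dynlrb1 was missed there too. The 1 member with an unadjusted p under 0.05 at 12 h was 1700042G15Rik, at 16.5 ± 3.86 in WT and 6.83 ± 2.74 in HET (SD, n = 3 each), a log2 difference of -1.20 (SE 0.45, limma adjusted p 0.577). At this level 6% of all genes were lower in HET, and for 8% of all genes, this one included, all HET cultures lay below all WT cultures.

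Averaged over the 3 times, all 8 estimates were below 0, from -0.94 for 1700042G15Rik to -0.33 for Slc6a4. In limma 0 of 8 members passed (0.0174% of all genes did), and Fezf2, Hpgds and 1700042G15Rik had an unadjusted p under 0.05, a share to be read beside 8.13% of all genes that were lower at this level. The exact two-sided permutation test of genotype within times gave 0.0327 for 1700042G15Rik, 0.0783 for Fezf2 and 0.0920 for Hpgds. For the rest it gave from 0.117 for Coch to 0.416 for Slc6a4. These p-values are unadjusted over the 8 genes tested, and 0.00025 is the smallest p that the 8000 arrangements of this test can give. For a single time, 3 cultures against 3 cannot go below 0.1 in such a test. The change from 12 to 48 h was smaller in HET than in WT for all 8 genes, by 0.92 for 1700042G15Rik and up to 1.95 for Cldn4 on the log2 scale, and the change from 12 to 24 h was larger in HET, by 0.24 for Slc6a4 and up to 1.69 for 1700042G15Rik. These differences of changes were not tested, since the changes chose the genes.

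Cultures of 1 group differed together in most of the 8 genes. Summed over the 8, the normalized count at 48 h was 2751, 5819 and 1440.0 in the WT cultures and 1012, 903 and 429 in the HET cultures, replicates 1 to 3. HET replicate 3 also lay apart over all genes. On the first principal component, which held 43.5% of the variance, it scored -15.5, just below the 24 h cultures (-10.3 to 16.9), while the other 48 h cultures scored 27.4 to 85.6. Its 8 neutrophil and red cell genes of 12 listed, which mark blood left over from dissection, summed to 2165 normalized counts, against 92.0 to 228 in the other 48 h cultures. The 12 dividing cell markers summed to 9280, 7753 and 5345 in the WT cultures at 48 h and to 6657, 4728 and 2498 in the HET cultures. The part of these differences between cultures in the values of the 8 genes was not tested.

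**Figure D4:**
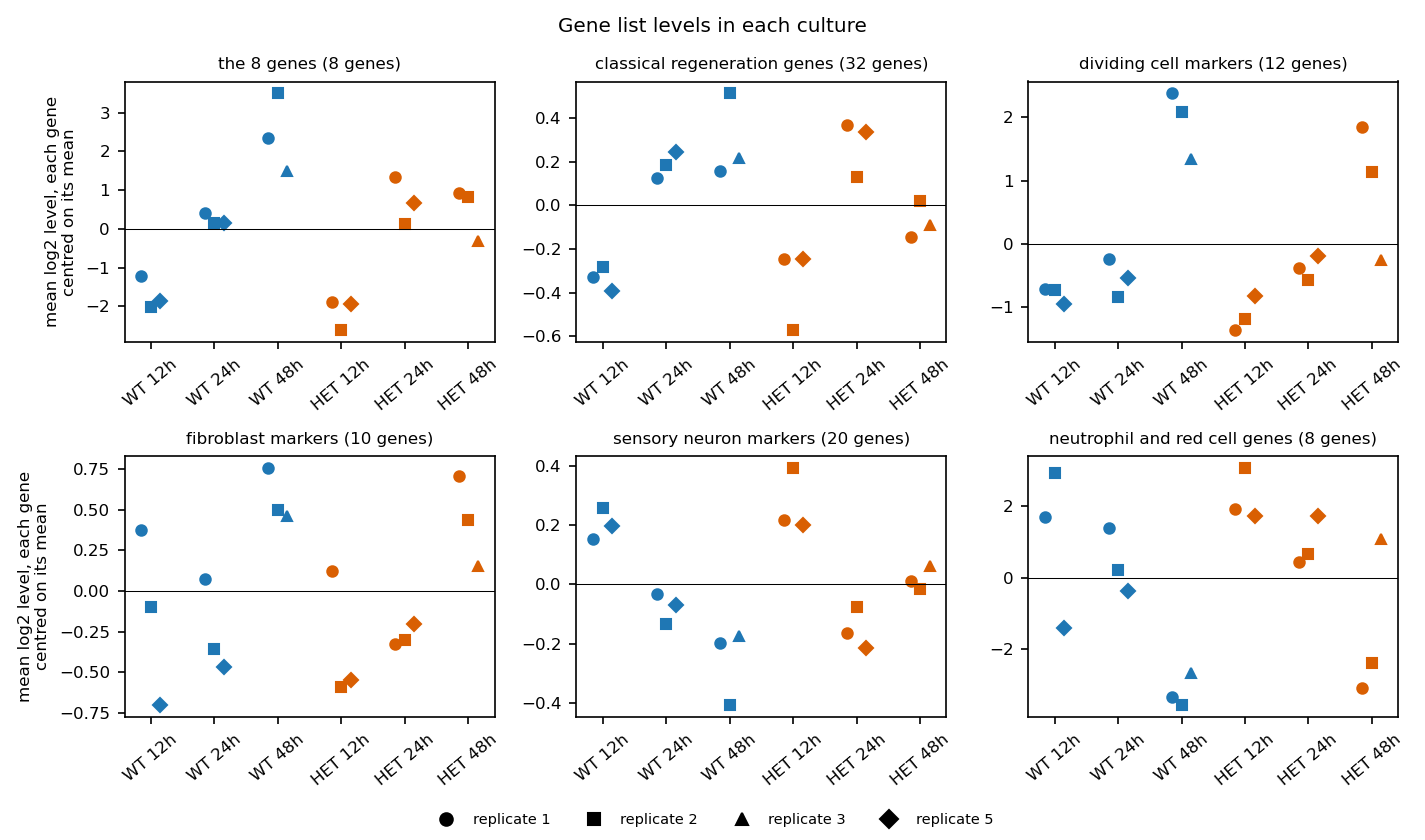
Mean log2 level of 6 gene lists in each of the 18 cultures, each gene centred on its own mean, by genotype and time. WT is blue, HET orange, and the marker shape gives the replicate number. HET replicate 3 at 48 h is the lowest 48 h culture for the 8 genes and for the dividing cell markers, and the highest for the neutrophil and red cell genes.

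Markers of other cells were examined for their levels over the same times. The 20 sensory neuron markers summed to 707465 to 813344 normalized counts at 12 h and 534038 to 598426 at 48 h in WT. In HET they summed to 765848 to 907534 at 12 h and 640965 to 723226 at 48 h. Every HET culture was thus above every WT culture at 48 h in this sum, the reverse of most of the 8 genes. In WT at 48 h against 12 h, 2 of the 20 rose and 11 fell, where 30% of all genes rose and 17.1% fell in limma at an adjusted p under 0.05. All 12 dividing cell markers rose there, with a median difference of 2.57 against 0.11 over all genes, and 6 of 10 fibroblast markers rose and 2 fell. At 48 h in WT, the higher levels of the 8 genes thus occurred beside higher levels of dividing cell and fibroblast markers. At 24 h against 12 h in WT, the median difference was 2.04 for the 8 genes and 0.05 for all genes. It was 0.25 for the dividing cell markers and -0.18 for the fibroblast markers. In HET at 24 h these medians were 3.01 for the 8 genes, 0.08 for all genes, 0.61 for dividing cell markers and 0.02 for fibroblast markers. The part of these cells in the result was not tested.

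The lists of cell types that the members are best known from moved in different directions. Of 15 epithelial markers 11 were in the table, and 5 rose and 1 fell in WT at 48 h, with a median difference of 1.07 against 0.11 over all genes, in the same direction as the members. St14, a membrane serine protease, rose by 1.37 (adjusted p 0.00359) and Epcam, an adhesion molecule, by 1.21 (adjusted p 0.0185), while Cdh1, encoding E-cadherin and the most abundant of the list, fell by 0.75 (adjusted p 0.00397). The sum over the list, to which Cdh1 adds most, went the other way: epithelial markers were at 6927 to 11957 normalized counts at 12 h and 5478 to 6608 at 48 h in WT. Mast cell markers, of which 5 of 10 were in the table, summed to 3686 to 4160 at 12 h and 1962 to 2081 at 48 h in WT, while Hpgds was higher. By gene, 1 of these 5 rose and 3 fell, and the part of mast cells in the values of Hpgds was not tested. Macrophage markers (10 of 11) were higher along with Hpgds, summing to 1851 to 3537 at 12 h and 4340 to 6606 at 48 h in WT, where 4 rose and 1 fell with a median difference of 0.76. At 48 h they summed to 2768 to 4149 in HET, below all WT cultures, as Hpgds was, and the part of macrophages in its values was not tested. Platelet and megakaryocyte markers (6 of 10) summed to 664 to 829 at 12 h and 378 to 498 at 48 h in WT, while Slc6a4 was higher. Keratinocyte markers (8 of 10) summed to 1421 to 1555 at 12 h and 938 to 1134 at 48 h in WT. The mesothelial list (8 of 10), of which Krt7 is also a simple keratin, summed to 787 to 1278 and then 438 to 782. By gene, 2 keratinocyte markers rose and 2 fell, and 1 mesothelial marker rose and 2 fell, beside 30% and 17.1% of all genes. On the mean log2 level, where each gene counts alike, the 12 and 48 h cultures overlapped in both lists. The defining mast cell proteases Mcpt4, Tpsb2, Tpsab1 and Cma1 and the epithelial keratin Krt18 were not analysed here.

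The other genes of the members' pathways were examined in WT at 48 h against 12 h, and all lists but the simple keratins held genes that rose and genes that fell. Counts are from limma at an adjusted p under 0.05 beside the 30% of all genes that rose and 17.1% that fell. Of 21 other serotonin genes, 4 rose and 7 fell. Htr5b and Htr1d, serotonin receptors, rose by 1.67 (adjusted p 0.00226) and 1.25 (adjusted p 0.00240), and the receptor Htr1a fell by 1.34 (adjusted p 0.00326) and Maob, a monoamine-degrading enzyme, by 1.14 (adjusted p 0.00225). Of 24 other prostaglandin genes, 6 rose and 7 fell. Ptgs1, the cyclooxygenase that makes the substrate of Hpgds, rose by 1.90 (adjusted p 0.00162), and Pla2g4a, which frees arachidonic acid from membranes, by 1.50 (adjusted p 0.00946). Ptgds, the other prostaglandin D synthase, fell by 1.79 (adjusted p 0.0416), and Ptgfr, the prostaglandin F receptor, by 1.47 (adjusted p 0.00121).

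Of 24 other tight junction genes, 3 rose and 10 fell, with a median difference of -0.48. The scaffold gene Tjp3 rose by 1.90 (adjusted p 0.0144) and Cldn3 by 1.67 (adjusted p 0.00797), both from under 10 normalized counts on average at 12 h. Cldn5, the claudin of endothelial cells, fell by 2.76 (adjusted p 8.43e-05), and Cldn9 by 2.35 (adjusted p 0.000605). Of the 4 other simple keratins measured, 2 rose and 0 fell, with a median of 0.98. Krt23 rose by 2.14 (adjusted p 0.0127) and Krt8, a partner of type I keratins such as Krt19, by 1.60 (adjusted p 0.0231), and Krt7 and Krt80 did not pass, at 0.37 and -0.26. Krt8 stayed low, at 17.9 normalized counts on average in WT at 48 h.

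Of 26 other glycosyltransferases, 7 rose and 4 fell, a balance that turned to 5 and 6 on the authors' plain columns. B4galnt3, a related N-acetylgalactosaminyltransferase, rose by 2.97 (adjusted p 0.000285) and B4galt2, a galactosyltransferase, by 0.97 (adjusted p 0.00177). The sialyltransferases St8sia4 and St8sia1, makers of polysialic acid and of ganglioside GD3, fell by 1.13 (adjusted p 0.00105) and 1.10 (adjusted p 0.00173). Of 8 other matrix genes with LCCL or von Willebrand factor A domains, Dcbld1 and Dcbld2 rose by 0.50 (adjusted p 0.00439) and 0.42 (adjusted p 0.00748), and Crispld2 fell by 1.75 (adjusted p 0.00107). Of 12 other projection neuron transcription factors, Cux1 rose by 0.64 (adjusted p 0.000556) and 3 fell, among them Etv1 by 2.29 (adjusted p 5.17e-05) and Bcl11a by 0.88 (adjusted p 0.00629). Of 32 classical regeneration genes measured, 14 rose and 9 fell. The all-gene counts lean on the scale: 5152 genes rose and 2946 fell with normalized counts, and 4177 rose and 3760 fell with the plain columns, which shift the median difference of all genes from 0.11 to near 0. On the plain columns the serotonin genes split 4 and 9, the tight junction genes 2 and 11, the regeneration genes 12 and 10 and the epithelial markers 4 and 1, and each gene named from these pathways kept its call.

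At 48 h in HET against WT, the members had a median difference of -1.92. The medians of the surrounding lists, given without a test, were 0.16 for the serotonin genes, -0.01 for the prostaglandin genes, 0.14 for the tight junction genes, -0.40 for the simple keratins, 0.06 for the glycosyltransferases, -0.11 for the matrix genes, -0.27 for the projection neuron factors, -0.07 for the classical regeneration genes and -1.07 for the dividing cell markers, with -0.03 over all genes. Other cell type lists had medians of 1.68 for neutrophil and red cell genes and 0.24 for sensory neuron markers. The medians were -0.47 for macrophage and -0.30 for epithelial markers. For fibroblast, mast cell, mesothelial and keratinocyte markers they were -0.26, 0.42, 0.58 and -0.06. For platelet, satellite glia, Schwann cell and endothelial markers they were 0.12, 0.09, 0.05 and 0.01. The part of these cells in the members' differences was not tested. Single classical regeneration genes reached values like those of the members: Npy was at -2.93 (limma adjusted p 0.0543) and Sprr1a at -2.55 (limma adjusted p 0.0532).

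The likeness of profiles over the 18 cultures was measured as the root-mean-square difference of log2 values, each gene centred on its own mean, beside the members' own spreads of 1.43 to 2.00. Fezf2 and 1700042G15Rik were nearest to each other (0.44), and Hpgds came second for both (0.57 and 0.48). Hpgds itself was nearest to Ecel1, an endopeptidase gene known to be induced by nerve injury (0.38), and to the phosphatase gene Dusp9 (0.40). Ecel1 was also nearest to Slc6a4 (0.49). B4galnt2 was nearest to Adra2a, the alpha 2A adrenergic receptor (0.39), and to the membrane protein gene Tmem98 (0.44). Cldn4 had the least close neighbours, Hpgds (0.58) and Sprr1a (0.72). Krt19 and Coch had others: Uhrf1, a gene of DNA methylation maintenance in dividing cells, and Loxl3, a lysyl oxidase, for Krt19 (0.40 and 0.42), and the cytokine Il11 and Uhrf1 for Coch (0.45 and 0.47). Krt19 and Coch, like Cldn4, had higher means at 48 h than at 24 h in both genotypes, and Uhrf1 was the neighbour they shared. All 18 cultures enter each value, so neighbours share the same libraries.

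Neighbours on the chromosome were also looked at, a choice made after the values were seen. The nearest measured gene on each side of the 8 members gave 16 genes, of which 5 rose and 3 fell in WT at 48 h against 12 h, beside 30% and 17.1% of all genes. The genes around Cldn4 were Wbscr27, 2.48 kb away, which rose by 1.22 (adjusted p 9.62e-05), and Cldn3, 39.3 kb away, which rose by 1.67 (adjusted p 0.00797). Smarcad1, 1.23 kb from Hpgds, differed by 0.22 (adjusted p 0.103), and Strn3, 3.86 kb from Coch, by 0.04 (adjusted p 0.747). Slc6a4, B4galnt2 and Krt19 share chromosome 11 but are not close neighbours.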

How the data were processed

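RNA-seq of 18 cultures was read from 1 table that the authors deposited. Per the file headers it holds normalized counts, a signal with no whole number and no 0 and with nearly the same total in each culture, plain adjusted signal columns and FPKM. It also holds the authors' log2 fold changes, p-values and adjusted p-values, and a rank, a score not used here, all as the authors deposited them. The submitters' processing notes name mm10, CASAVA 1.8.2 and edgeR, and the roles of these, the counting and the annotation are not given in the sources used here. The logarithms of the plain columns spanned 15 of 17 possible directions between cultures, so 2 directions had been removed before deposit, and the 12 residual degrees of freedom in limma are an overcount. Depth is unknown, so no interval was made from counts.

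Log2(normalized count + 1) was fitted in limma 3.58.1 (R 4.3.3) with 1 coefficient per group over all 18 cultures and a mean-variance trend, after a filter at a mean of 1 that removed 0 genes. P-values were adjusted by Benjamini-Hochberg within each comparison. The fit was tested on simulated data with noise drawn separately for each gene and culture. That simulation does not cover shifts shared by many genes of a culture, nor the removed directions. Groups and replicate numbers came from the sample titles. The members, gene lists and tests were chosen with earlier results of these data known. The genes named were the 8 members, Dynlrb1, the 2 nearest profiles of each member, in each pathway list up to 2 genes with the largest rise and 2 with the largest fall in WT at 48 h (where fewer passed, those of highest FPKM), marker genes of highest mean and genes ranked next to the members. Top2a, Aurkb and Uhrf1 were also named as dividing cell markers among the top ranks in WT at 48 h. Positions come from GENCODE M21 and start regions from RefSeq. Alternatives were another pseudocount, filter or column type, a replicate block, the removed directions as covariates, only the groups compared, and each culture left out.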

Additional observations from a re-analysis of the deposited data

How the results depend on the processing

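Of the 952 values of single genes under an alternative, 906 stayed the same. For genotype differences this means the same direction and side of the threshold. For time differences, which had no test, it means a shift below the spread between replicates. Another 35 crossed the threshold in the same direction, 2 time differences moved by more than that spread, and 9 values reversed. The reversals came from leaving out 1 culture (WT replicate 1 or 2 or any HET culture at 12 h, HET replicate 1 at 24 h). Over the cultures left out, the difference at 12 h ran from -0.36 to 0.77 for Slc6a4, -0.35 to 0.045 for B4galnt2, -0.98 to 0.44 for Cldn4 and -0.11 to 0.34 for Krt19, and at 24 h from -0.19 to 0.69 for Cldn4 and -0.040 to 0.77 for Coch. The cause was not tested.

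The labels do not say that replicate numbers pair the samples. Deviations of the 9 same-numbered pairs correlated at -0.21 to 0.46 and 7 of 9 were over 0.1, all 3 at 48 h among them. The 3 deviations of a group sum to 0, so the correlations of a time are not independent. Pairing was therefore taken as open at all 3 times. With the replicate block, HET against WT gave 0 genes at 24 h, 1790 genes and 7 members at 48 h, and 205 genes and 2 members for the average, and the time comparisons gave 1218 genes at 24 h in WT and 5099 at 48 h in HET. With the block within each time, chosen after seeing the data, HET against WT gave 17 genes at 12 h, 0 at 24 h, 2120 and 8 members at 48 h, and 553 and 3 members for the average. The plain columns yielded 2 genes between genotypes at 12 h and 1 at 48 h. With the removed directions as covariates, also added later, the counts were 0 at 24 h, 1 at 48 h and 1132 at 24 h in WT. With only the groups compared they were 0 at 24 h and 0 at 48 h against 12 h in HET. That setting has no meaning for the average.

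Leaving out 1 culture gave 0 to 2 genes at 12 h, 0 to 1 at 24 h and 0 to 931 at 48 h between genotypes, with 0 to 6 members at 48 h. Time comparisons gave 0 to 197 genes at 24 h and 6038 to 7670 at 48 h in WT, and 1141 to 2915 at 24 h and 0 to 4886 at 48 h in HET. Against 622, 8098, 3252 and 2442 with all cultures, this makes 48 h in WT the steadiest of these 4 counts. Where 2 cultures were left, their spread was taken from all groups. With the plain columns the share of genes that were higher among those past the threshold went from 69.5% to 57.1% at 24 h and from 74.5% to 51.9% at 48 h in HET. DESeq2 was not run, since the values are not counts, and testing without a filter changed nothing because the filter removed 0 genes.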
